A study of Mus musculus with 18 samples.

Results

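The genes of the oxidative phosphorylation machinery were followed through 18 RNA-seq libraries of mouse CD45+ leukocytes that had stayed in an inflamed tissue, had moved from it to the draining lymph node, or came from a node of the same site at steady state. The set held the protein-coding genes whose symbols begin with mt-, Nduf, Uqcr or Atp5, or with Cox and a digit from 4 to 8, plus Sdha, Sdhb, Sdhc, Sdhd and Cyc1. It came to 107 of the 49585 genes in the count table, of which 94 are nuclear genes and 13 lie on the mitochondrial chromosome, and these 2 sets were described apart. By complex, the nuclear genes comprised 36 of complex I, 4 of complex II, 9 of complex III, 20 of complex IV, 16 of complex V and 9 that assemble or couple the complexes.

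Oxidative phosphorylation passes electrons from NADH and succinate along complexes I to IV of the inner mitochondrial membrane to oxygen, pumping protons that drive ATP synthase, complex V. Most subunits are encoded in the nucleus and imported, whereas a small core of complexes I, III, IV and V is encoded by mitochondrial DNA and transcribed inside the organelle. Complex II, succinate dehydrogenase, is encoded by nuclear genes alone and also works in the tricarboxylic acid (TCA) cycle. In leukocytes the balance between glycolysis and oxidative phosphorylation is known to shift on activation.

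All libraries came from Kaede mice, whose ubiquitous Kaede protein turns from green to red under violet light, so that cells lit in a tissue can be found again elsewhere. The mice were aged 6 to 10 weeks. Those of the 4 inflamed groups received in vitro polarized OT-II Th1 cells and were immunized with 100 µg ovalbumin in complete Freund's adjuvant. They were challenged 10 days later with 100 µg heat-aggregated ovalbumin (HAO) in the footpad or the ear pinna. The inflamed site was photoconverted on day 3 and tissues were taken 24 hours later. Red CD45+ cells still in the tissue form the joint nonmigrated and skin nonmigrated groups, and red CD45+ cells in the draining node form the joint migrated and skin migrated groups. The remaining 2 groups are CD45+ cells that the labels describe as having moved from joint or ear to the node at steady state, named here the steady joint node and the steady skin node. Their titles differ, with PBS and KG for the joint and naive for the skin. The sources used here do not explain KG or say whether these cells were photoconverted. The methods name PBS as the alternative to HAO in the challenge. Whether the mice of these 2 groups received Th1 cells or immunization is not given. If KG stands for Kaede green, the steady joint node cells were unconverted. Whether the cells of these 2 groups had left the tissue therefore cannot be told. Each group held 3 libraries, and for the 4 inflamed groups each library was a pool of 8 to 18 male and female mice.

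Assigned counts ran from 19239531 to 43814403 per library, and the 6 inflamed skin libraries, at 19239531 to 22528895, were shallower than the 6 inflamed joint libraries, at 35554698 to 43814403, so that site cannot be told apart from depth or separate handling. Skin migrated libraries, at 19239531 to 22378238, were also shallower than steady skin node libraries, at 28577566 to 40055171. Between these 2 groups, too, inflammation cannot be told apart from depth or separate handling. Steady joint node replicate 3 stood apart for these genes: it was the highest of its 3 libraries for 85 of 89 tested nuclear members (95.5%), against 38.4% of all tested genes. Leukocyte makeup also differed among groups. The summed level of 8 monocyte and macrophage markers was 17443 to 21554 CPM, read counts scaled to library depth, in joint nonmigrated cells and 143 to 336 CPM in joint migrated cells. Migratory dendritic cell markers (6 genes) ran from 228 to 276 CPM in joint nonmigrated, 2519 to 6464 CPM in joint migrated and 564 to 893 CPM in steady joint node libraries. In these bulk pools, fewer cells of a type and less RNA per cell cannot be told apart, and the part of cell makeup in the values that follow was not tested.

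The 13 mitochondrial genes were first separated by how much of their sequence recurs in other annotated transcripts. Their transcripts were cut into windows of 100 bases, the read length of the study, and each window was searched in all other transcripts of the GENCODE M21 annotation of the GRCm38 build, which is the build of mm10. Most of the shared sequence lay in unprocessed pseudogenes on chr1:24611535-24616197, nuclear copies of mitochondrial DNA. For 5 genes nearly every window was identical to a nuclear copy, from 97.6% for mt-Nd3 to 99.9% for mt-Co3. The first 100 bases of mt-Co2 and mt-Atp6 are printed as examples because every base occurs unchanged in the named copy.
mt-Co2 (same in Gm28661): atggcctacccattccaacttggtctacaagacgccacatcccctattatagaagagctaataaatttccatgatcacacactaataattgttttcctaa
mt-Atp6 (same in Gm10925): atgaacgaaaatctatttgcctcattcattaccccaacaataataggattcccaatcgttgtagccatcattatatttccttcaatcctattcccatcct

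These 5 genes, mt-Nd3, mt-Nd4l, mt-Co2, mt-Co3 and mt-Atp6, were at or below 6.26 CPM in every library. Per kilobase of transcript, their medians over the 18 libraries were 0.475 CPM for mt-Nd3, 8.99 for mt-Nd4l, 2.97 for mt-Co2, 0.63 for mt-Co3 and 1.15 for mt-Atp6. The other 8 genes, whose shared windows ranged from 0% (mt-Nd1, mt-Nd5, mt-Nd6, mt-Cytb and mt-Atp8) to 60.8% (mt-Nd4), had medians from 926 CPM per kilobase for mt-Nd4 to 6001 for mt-Co1, which encodes the catalytic core of cytochrome c oxidase. The 2 sets did not overlap, as the plot of level against shared windows shows. Only annotated transcripts were searched, so a share of 0% does not exclude an identical copy elsewhere in the genome. The sequence between the copies of mt-Co2 and mt-Atp6, the genes on either side of mt-Atp8, was not searched as such. Reads that aligned to more than 1 place made up 9.24% to 12.7% of each library and are not in the gene counts. The levels of those 5 genes are therefore uncertain, and their part in the calls is named where it arises. Among nuclear members the largest shares of windows found elsewhere in the transcriptome were 61.3% for Atp5l, 33.4% for Ndufb4 and 29.5% for Atp5h.

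**Figure D1:**
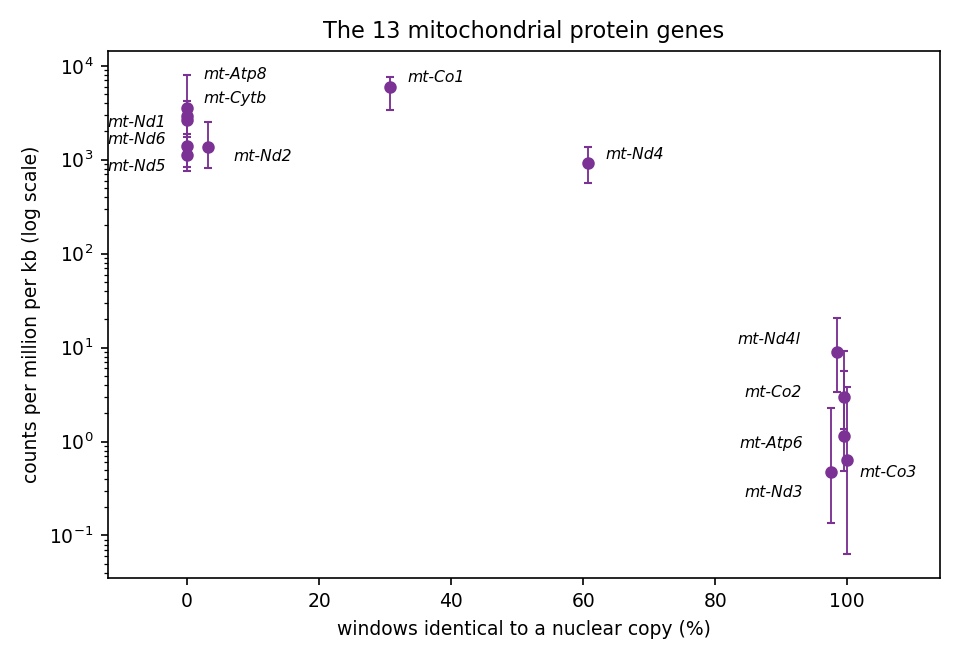
Level of the 13 mitochondrial protein genes (points, median of 18 libraries, bars from lowest to highest, CPM per kilobase on a log scale) against the percent of 100-base windows identical to another transcript. The 5 genes at 97.6% or more sit at medians of 8.99 or less, and the other 8 at 926 or more.

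By group median, summed mitochondrial transcripts were lowest in migrated cells and highest in the steady-state nodes, and nuclear transcripts were not. CPM here are scaled by edgeR's trimmed mean of M-values (TMM) over the 18 libraries. The 13 mitochondrial genes summed to 21723, 20719 and 22043 CPM in the 3 joint nonmigrated libraries, 15954, 12168 and 16820.0 in joint migrated and 27219, 24918 and 25074 in steady joint node. In the skin they summed to 26171, 19143 and 22777 CPM in nonmigrated, 19192, 13768 and 17056 in migrated and 21904, 28188 and 30522 in steady skin node libraries. The joint groups did not overlap, while in the skin the highest migrated library was just above the lowest nonmigrated one and the steady skin node overlapped the nonmigrated group.

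The 94 nuclear genes summed to 6886, 7190.4 and 6039 CPM in joint nonmigrated, 6424, 5988 and 5694 in joint migrated and 4772, 4669 and 6229.9 in steady joint node libraries. Corresponding skin sums were 5354, 5189 and 6218 CPM in nonmigrated, 6468, 6669 and 6402 in migrated and 5154, 4743 and 4534 in steady skin node libraries. Skin migrated libraries lay above both other skin groups, whereas the joint groups overlapped, steady joint node replicate 3 being inside the range of joint migrated cells. Without TMM scaling, mitochondrial protein genes took 1.29% to 3.5% of assigned counts and nuclear members 0.445% to 0.714%.

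**Figure D2:**
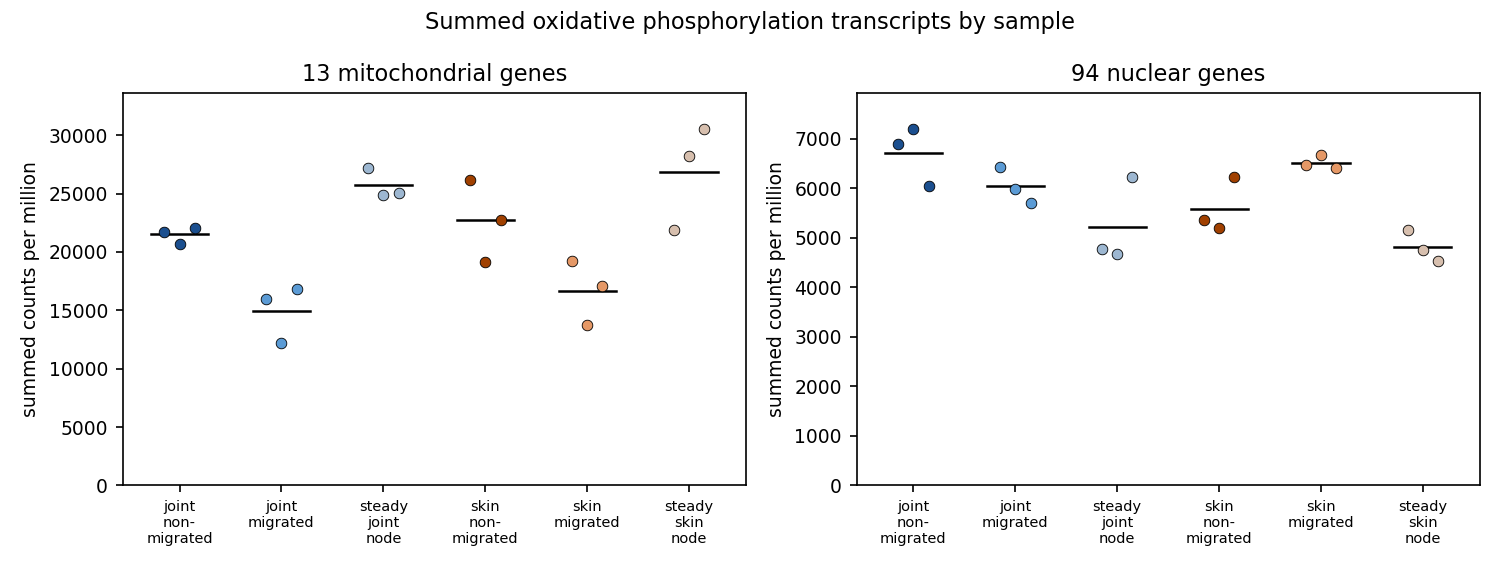
Summed CPM of the 13 mitochondrial and the 94 nuclear genes in each of the 18 libraries, by group (points are libraries, bars are group means). Mitochondrial sums are lowest in the migrated groups, at 12168 to 19192 CPM, and nuclear sums are lowest in the steady-state nodes apart from 1 steady joint library at 6230 CPM.

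Among nuclear members, level per kilobase of merged annotated exons was led by 4 complex IV genes. These were Cox8a (median 180.0 CPM per kilobase over the 18 libraries), Cox6b1 (179.9), Cox7a2l (175) and Cox6a1 (153), the order of the first 3 being within their spread. Atp5a1, the alpha subunit of ATP synthase, came next at 147. This order depends on the length used, because merged exons can be longer than a single transcript. For Atp5b they came to 4237 bases against 1916 in its longest coding transcript, and for Cox8a to 619 against 550. At the other end were alternative isoforms of ubiquitous subunits. Cox7a1, a heart and muscle form, had a median of 0.954 CPM per kilobase, Cox6b2, a testis form, 0.739, Cox4i2, a hypoxia-induced form, 0.0965, and Ndufa4l2, another hypoxia-induced gene, 0.0437. Cox7b2, Cox8b and Cox8c did not pass the filter on low counts in any comparison, with at most 1 count in a library.

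Promoter windows of 250 bases before to 50 after the start site were read from RefSeq for the build GRCm38.p6 and matched 76 of the 94 nuclear members. The core of the NRF1 motif, GCATGCG, was found on either strand for 13 members (17.1%) and for 867 of 17492 coding genes (4.96%). The ETS core bound by GABPA, CCGGAAG, was found for 18 members (23.7%) against 12.9% of all coding genes, and the YY1 core, AAGATGG, for 12 (15.8%) against 7.18%. The last 2 can overlap by AAG, and 35 members (46.1%) held at least 1 against 22.6% of all. These shares are descriptions, and a match is not a binding site. Windows of Sdhd, Uqcrh and Cox5a are shown because the comparisons that follow turn on these genes. They run in the direction of the gene, the capitals mark CTTCCGG, the reverse complement of CCGGAAG, and Sdhd is cut to 60 bases where a neighbouring gene is transcribed further up.
Sdhd, chr9:50603850-50603909, minus strand: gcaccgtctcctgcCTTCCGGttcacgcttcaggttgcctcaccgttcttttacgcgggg
Uqcrh, chr4:116075071-116075220, minus strand: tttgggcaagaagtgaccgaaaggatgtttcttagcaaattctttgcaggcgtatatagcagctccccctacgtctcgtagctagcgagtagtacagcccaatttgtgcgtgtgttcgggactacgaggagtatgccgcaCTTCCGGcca
Cox5a, chr9:57521082-57521231, plus strand: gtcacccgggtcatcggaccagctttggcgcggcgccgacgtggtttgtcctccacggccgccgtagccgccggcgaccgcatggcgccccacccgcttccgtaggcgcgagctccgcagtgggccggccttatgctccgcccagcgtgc
The capitals lie 46 bases before the start site of Sdhd and 10 before that of Uqcrh, and none of the 3 cores is in the window of Cox5a. By complex, the ETS core was found for 2 of 3 matched genes of complex II, 2 of 5 of complex III, 5 of 14 of complex V, 3 of 14 of complex IV and 4 of 32 of complex I.

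Migrated cells were compared with the node at steady state, whose cells may not have come from the tissue. In the skin most nuclear members were higher and most mitochondrial genes without near-identical annotated copies lower in migrated cells. The joint showed the same directions, with fewer nuclear calls and as many mitochondrial ones. Genes counted as called had an adjusted p below 0.05 in edgeR's quasi-likelihood test with Benjamini-Hochberg adjustment over all genes tested, with n = 3 libraries in each group. Skin migrated cells were higher than the steady skin node for 57 of 89 tested nuclear members and lower for 4, where 34.4% of all 17107 tested genes were called higher and 30.6% lower. These skin groups also differed in depth without overlap. Joint migrated cells were higher than the steady joint node for 35 of 89 and lower for 2, against 27.1% and 22.7% of all genes. Among mitochondrial genes, 7 of 13 were lower and 0 higher at each site. The 2 comparisons share no library, but both come from 1 fit with a shared estimate of spread. Called higher in both were 33 nuclear genes (94.3% of the joint calls and 57.9% of the skin calls). Called lower in both were 6 mitochondrial genes (85.7% of each), namely mt-Nd2, mt-Nd4, mt-Nd5, mt-Nd6, mt-Cytb and mt-Co1. Of these, mt-Nd4 and mt-Co1 share 60.8% and 30.8% of their windows with other transcripts, so their levels are uncertain in part. The share of all genes called alike in both was not counted.

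Median log2 fold changes of the nuclear members were 0.48 in the skin and 0.27 in the joint, and those of the mitochondrial genes -0.72 and -0.86, while the median over all tested genes was between -0.02 and 0.00. Past 2-fold, 4 nuclear members were higher and 1 lower in the skin, against 21.5% and 15% of all genes, and 2 were higher in the joint, against 16.9%. The joint count of 37 nuclear calls rested on few libraries: it was 15 without steady joint node replicate 1, 16 without replicate 2 and 65 without replicate 3, when all 35 genes called higher remained called. It was 19 without joint migrated replicate 1 and 22 without joint migrated replicate 2, and the 7 mitochondrial calls did not change in number in any of these fits. Scaled by library size only, the skin calls became 45 higher and 10 lower, with the median of all genes at -0.17.

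**Figure D3:**
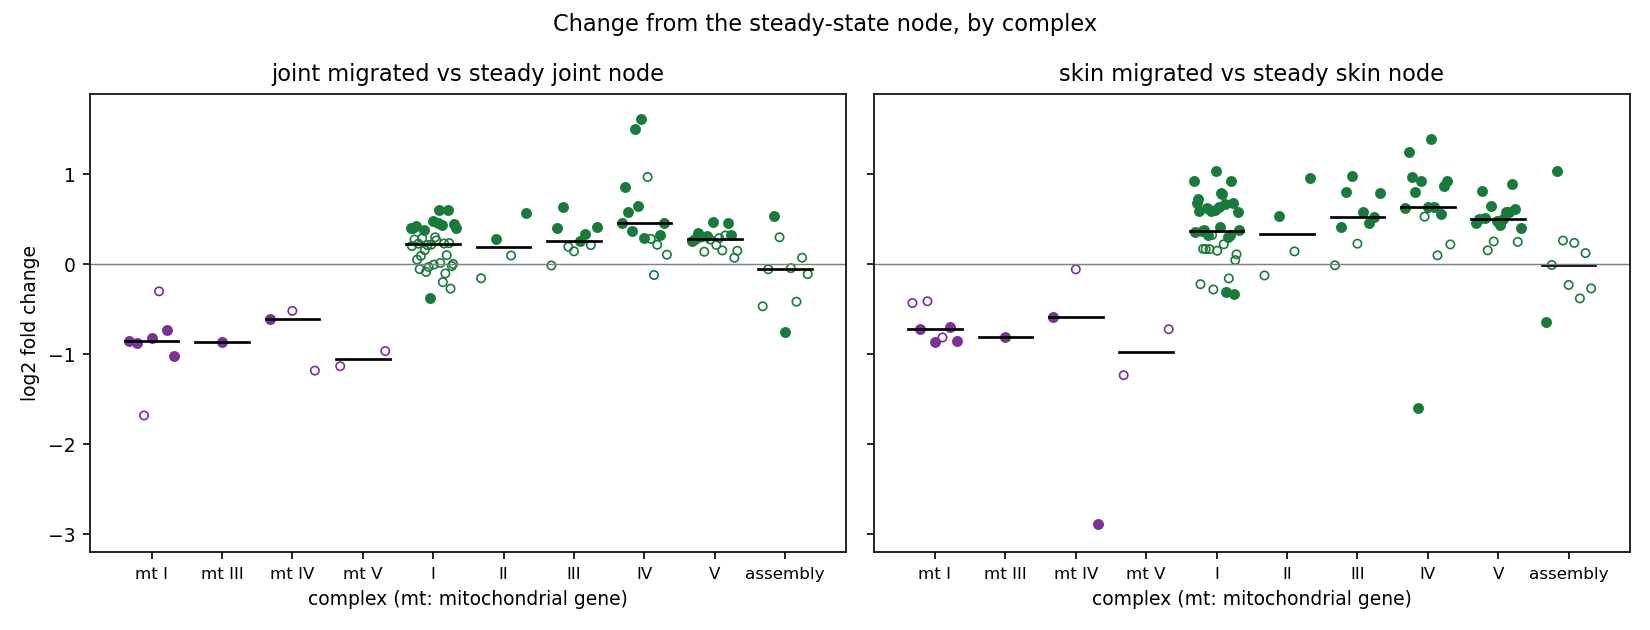
Log2 fold change of each tested member, migrated cells over the steady-state node of the same site, by complex (purple for mitochondrial and green for nuclear genes, filled for adjusted p below 0.05 and open for not called, bars for medians). Nuclear medians are 0.27 in the joint and 0.48 in the skin, and mitochondrial medians -0.86 and -0.72.

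Complex IV, cytochrome c oxidase, held the largest of these differences. Cox5a (ENSMUSG00000000088, chr9:57521274-57532426), a nuclear subunit that contacts the catalytic core, was at 34.9, 33.9 and 45.6 CPM in the steady joint node and 66.6, 68.3 and 68.7 in joint migrated cells. In the skin it was at 33.6, 30.9 and 31.5 CPM in the steady skin node and 71.3, 80.2 and 71.3 in migrated cells. Neither pair of groups overlapped, and the log2 fold changes were 0.86 ± 0.11 (SE, adjusted p = 3.04e-05) in the joint and 1.25 ± 0.11 (SE, adjusted p = 6.88e-07) in the skin. Cox8a (chr19:7215153-7217616), a small membrane subunit, was at 70.8, 67.7 and 92.2 CPM in steady joint node and 108, 106 and 97.1 in joint migrated libraries, for a log2 fold change of 0.46 ± 0.12 (SE, adjusted p = 0.00508). Its skin values were 70.4, 62.6 and 58.3 CPM at steady state and 120.0, 115 and 121 after migration, again without overlap, a change of 0.93 ± 0.12 (SE, adjusted p = 1.49e-05). In all, 10 of 15 tested nuclear complex IV members were called higher in the joint, and 11 higher and 1 lower in the skin. The others among them included Cox5b (0.59 in the joint and 0.97 in the skin), Cox6b1 (0.65 and 0.93) and Cox4i1 (0.46 and 0.62), which carries the site where ATP inhibits the enzyme.

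Complex II moved only in part. Sdhd, a membrane anchor of succinate dehydrogenase, was at 38.7, 38.1 and 47.8 CPM in the steady joint node and 61.8, 60.6 and 58.4 in joint migrated cells, for a log2 fold change of 0.57 ± 0.10 (SE, adjusted p = 0.000322). In the skin Sdhd was at 38.8, 39.1 and 36.5 CPM at steady state and 75.4, 73.9 and 69.2 in migrated cells, a change of 0.96 ± 0.10 (SE, adjusted p = 2.03e-06), and the groups did not overlap at either site. Sdhb, which carries the iron-sulfur clusters, changed by 0.28 in the joint and 0.54 in the skin. The catalytic Sdha was not called, with log2 fold changes of -0.15 and -0.12, and neither was the other anchor Sdhc, with 0.10 and 0.14.

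In complex III, the cytochrome bc1 complex, 5 of 9 nuclear members were called higher in the joint and 7 of 9 in the skin. Uqcr11 changed by 0.64 in the joint and 0.80 in the skin, and the core protein Uqcrc2 by 0.26 and 0.58. Uqcrb, which binds ubiquinone, was at 36.8, 35.3 and 34.8 CPM in steady skin node and 69.5, 67.3 and 70.1 in skin migrated libraries, for a log2 fold change of 0.98 ± 0.10 (SE, adjusted p = 1.81e-06). In the joint its values of 37.6, 38.9 and 47.6 CPM at steady state and 48.4, 46.7 and 43.9 after migration overlapped, and the change was 0.20 ± 0.10 (SE, adjusted p = 0.116). For complex V, 7 of 16 nuclear members were called higher in the joint and 13 of 16 in the skin. The gamma subunit Atp5c1, the rotating shaft of the motor, changed by 0.35 and 0.82, and the catalytic beta subunit Atp5b by 0.28 and 0.50.

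Complex I, NADH dehydrogenase, had 10 of 36 nuclear members called higher and 1 lower in the joint, and 23 higher and 2 lower in the skin. The joint share called higher was near the 27.1% of all genes, and that of the skin above 34.4%. In the skin the accessory subunit Ndufb4 had the largest change of the complex, 1.04 ± 0.17 (SE, adjusted p = 0.000159), with 0.48 in the joint, but 33.4% of its windows lie in other transcripts and its level is uncertain. Ndufa1 followed at 0.93 and 0.40. Other accessory subunits called higher at both sites were Ndufs5, at 0.61 in the joint and 0.93 in the skin, Ndufb8 at 0.46 and 0.79, and Ndufb9 at 0.61 and 0.78. Against them, the core subunits Ndufs1, which carries iron-sulfur clusters, and Ndufs7 were lower in the skin, by log2 fold changes of -0.31 and -0.33, and the accessory Ndufb2 was lower in the joint, at -0.37. Among the 9 assembly or coupling genes, Ndufaf2, an assembly factor of complex I, was higher at both sites, at 0.54 and 1.04. Ndufaf4, another such factor, was at 20.4, 14.6 and 18.2 CPM in the steady joint node and 10.5, 10.8 and 9.64 in joint migrated cells, without overlap, a change of -0.75 ± 0.16 (SE, adjusted p = 0.00137). In the skin the Ndufaf4 change was -0.23 ± 0.16 (SE, adjusted p = 0.216). Atp5s, a coupling factor, was lower in the skin, at -0.64.

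Among other core subunits and isoforms, Uqcrfs1, the Rieske iron-sulfur protein of complex III, was higher in migrated cells than at steady state at both sites, at 0.34 and 0.46, as was Atp5a1, at 0.26 and 0.46. Genes called in the skin and not in the joint included the complex IV genes Cox7a2 (0.64 against 0.28) and Cox7b (0.56 against 0.22) and the c subunit gene Atp5g3 (0.44 against 0.22), none of which was called for a difference between sites. The core protein Uqcrc1 and cytochrome c1 (Cyc1) were called at neither site, Uqcrc1 being at 0.15 and 0.23 and Cyc1 at -0.01 and -0.01. Against nonmigrated cells Uqcrc1, Cox7a2 and Cox7b were lower in joint migrated cells, at -0.40, -0.47 and -0.39, and Atp5a1 and Ndufa4 higher in skin migrated cells, at 0.45 and 0.46.

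**Figure D4:**
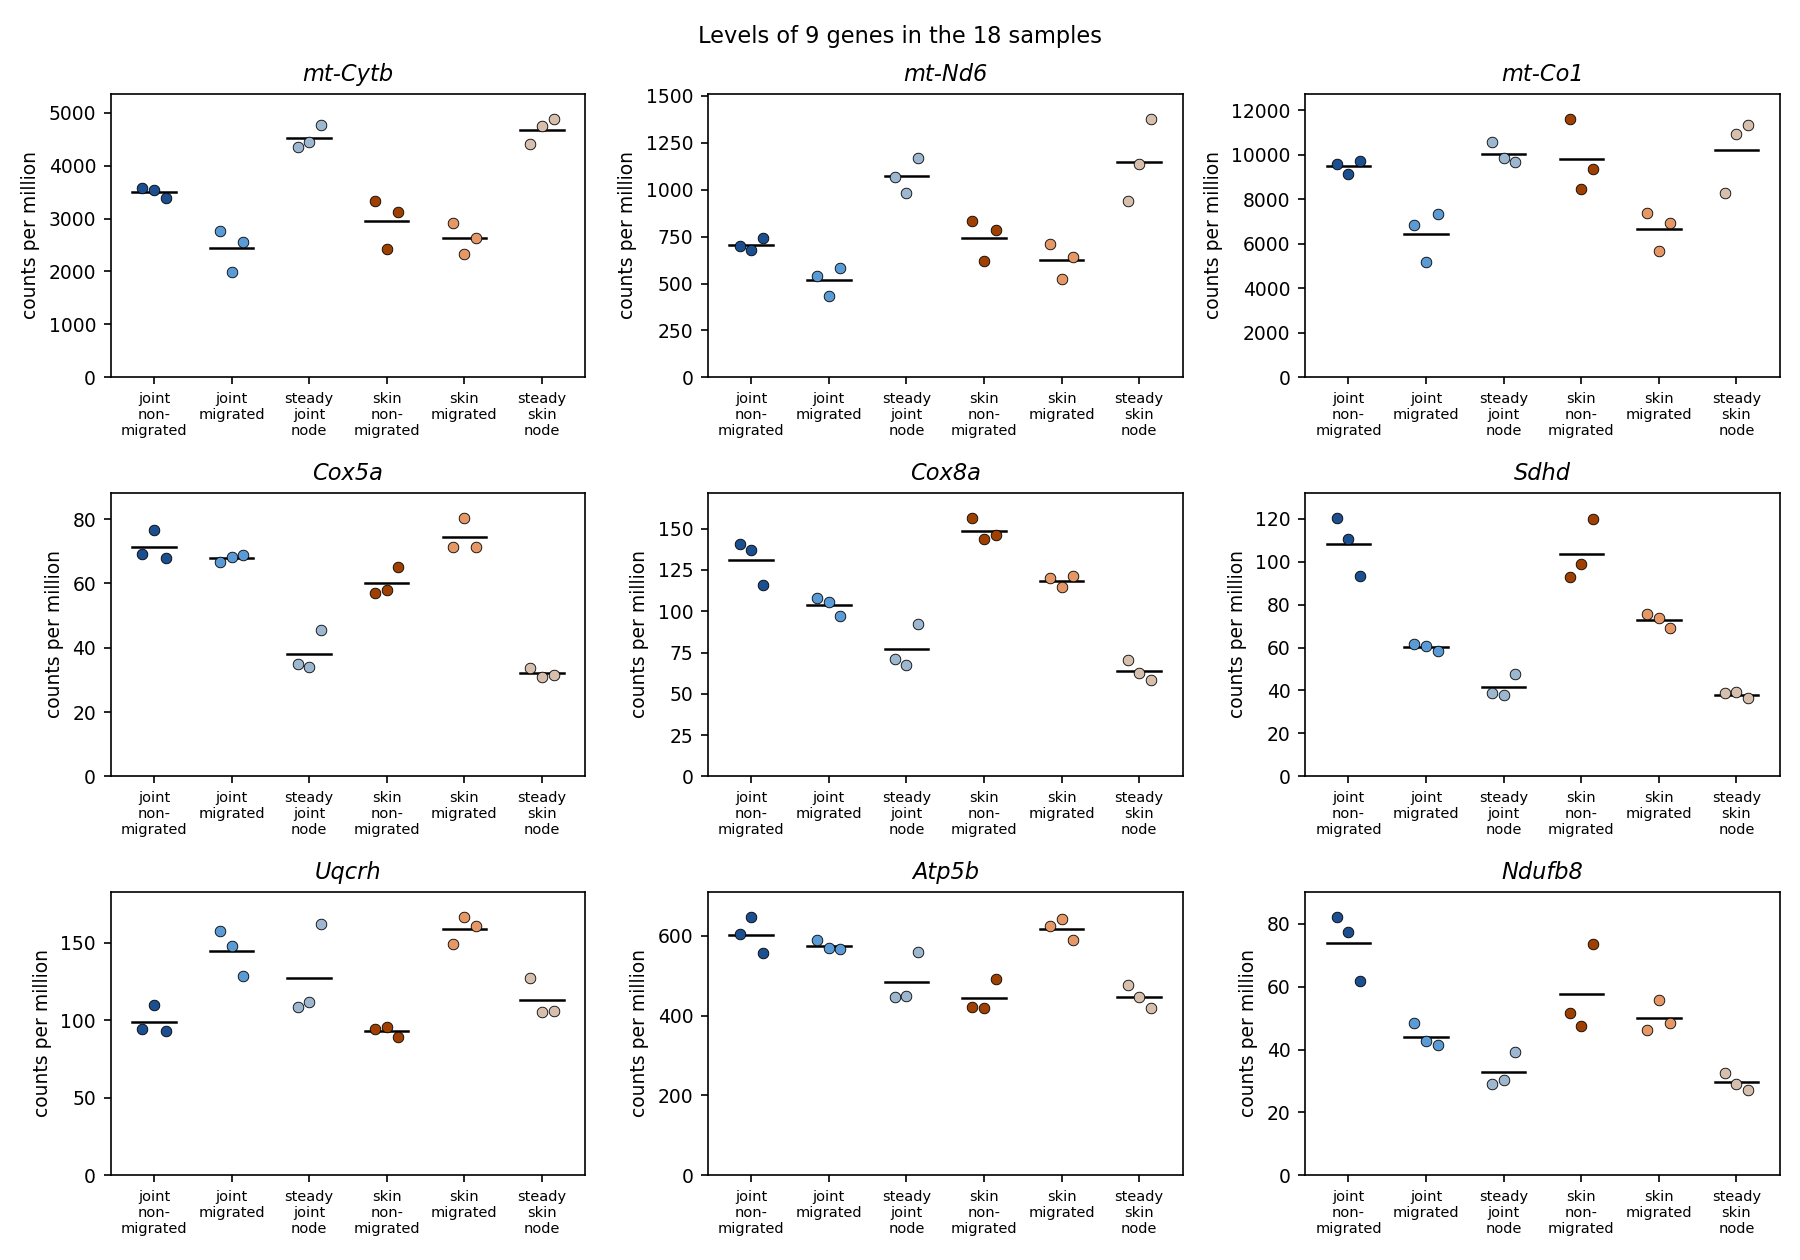
CPM of selected members in each library by group (points are libraries, bars are group means). Cox5a and Sdhd separate migrated cells from the steady-state node at both sites, while mt-Cytb runs the other way.

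The mitochondrial genes ran opposite to their nuclear partners. mt-Cytb (mitochondrial chromosome, chrM:14145-15288), the cytochrome b of complex III, was at 4349, 4439 and 4768 CPM in the steady joint node and 2768, 1991 and 2551 in joint migrated cells, for a log2 fold change of -0.86 ± 0.14 (SE, adjusted p = 0.000253). In the skin mt-Cytb was at 4405, 4756 and 4874 CPM at steady state and 2921, 2334 and 2629 in migrated cells, a change of -0.80 ± 0.14 (SE, adjusted p = 0.000284). The groups did not overlap at either site. mt-Nd6 (chrM:13552-14070), the complex I gene on the opposite strand to the other 12, was at 1068, 984 and 1171 CPM in steady joint node and 538, 435 and 585 in joint migrated libraries, a change of -1.02 ± 0.17 (SE, adjusted p = 0.000196). Its skin values were 937, 1135 and 1375 CPM and 713, 525 and 639, likewise apart, with -0.85 ± 0.16 (SE, adjusted p = 0.000542). The strand setting of the counting was not given in the sources used here, so reads of mt-Nd6 and of transcripts antisense to it cannot be told apart.

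mt-Nd1 was lower in joint migrated cells, at -0.85, and not called in the skin, at -0.43 (adjusted p = 0.0939). The 7th skin call was mt-Co3, at -2.89, which is 1 of the 5 genes identical to nuclear copies and had between 0.0499 and 2.99 CPM in these 6 libraries. mt-Atp8, a small subunit of ATP synthase, spread widely within groups, at 435, 1170.5 and 1553 CPM in the steady skin node, and was not called at either site. The mitochondrial ribosomal RNAs, which are not members, did not follow: mt-Rnr1 and mt-Rnr2 had log2 fold changes of 0.03 and -0.19 in the joint, neither called, and of 1.29 and 0.86 in the skin, both called higher. Multiply aligned reads took 10.7% to 12.7% of steady-state and 9.24% to 10.3% of migrated libraries, and their part in these differences was not tested.

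Beside these differences, all 7 proliferation markers were higher in migrated cells than in the node at both sites. Their summed level was 719 to 986 CPM in joint migrated against 91.4 to 142 CPM in steady joint node libraries, and 569 to 995 against 58.5 to 77.6 CPM in the skin. All 6 migratory dendritic cell markers were also higher and all 6 B cell markers lower at both sites, the latter from 4674 to 4957 CPM in the steady joint node to 846 to 1125 CPM in joint migrated cells. Neutrophil markers were lower in the joint (8 of 8), and monocyte and macrophage markers higher in the skin (8 of 8). The steady-state nodes themselves differed in these lists. Neutrophil markers summed to 437 to 847 CPM in the steady joint node and 11.6 to 18.1 CPM in the steady skin node. Monocyte and macrophage markers summed to 390 to 564 CPM and 52.0 to 79.5 CPM. Of 8 T cell markers, 1 was higher and 1 lower in the joint and 3 were lower in the skin. The part of these cells in the member values was not tested.

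Migrated cells were next set against the cells left behind. The nuclear members called were mostly lower in joint migrated cells and mostly higher in skin migrated cells, though at shares near or below those of all genes. In the joint, 27 of 91 tested nuclear members were lower in migrated cells and 4 higher, where 28.4% of all 16777 tested genes were called lower and 27.1% higher, so the share of members called lower was near the background. In the skin, 23 of 91 were higher and 8 lower, against 28.1% and 28.9% of all genes, so both shares were below the background. Mitochondrial genes were lower at both sites, 5 of 12 in the joint and 3 of 12 in the skin, and none was higher. The skin share was below the 28.9% of all genes called lower there. Medians over nuclear members were -0.21 in the joint and 0.12 in the skin, and those over mitochondrial genes -0.48 and -0.34. Past 2-fold, 2 nuclear members were lower at each site, against 18.4% of all genes in the joint and 19.7% in the skin, and none was higher.

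These splits depended on scaling. With library size only in place of TMM, the median over all genes moved to 0.33 in the joint and 0.28 in the skin. The joint then had 20 nuclear members higher and 7 lower, the skin 52 higher and 2 lower, and no mitochondrial gene was called. Of the 27 nuclear genes called lower in the joint, 7 were still called lower and 3 took the opposite sign, none of these 3 being called. The 31 nuclear calls of the joint fell to 20 without joint migrated replicate 3. The 5 mitochondrial calls of the joint fell to 0 without joint migrated replicate 2 and to 3 without joint nonmigrated replicate 1 or replicate 3, and the 3 of the skin to 0 without skin nonmigrated replicate 1 or skin migrated replicate 2 and to 1 without skin nonmigrated replicate 3 or skin migrated replicate 3.

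**Figure D5:**
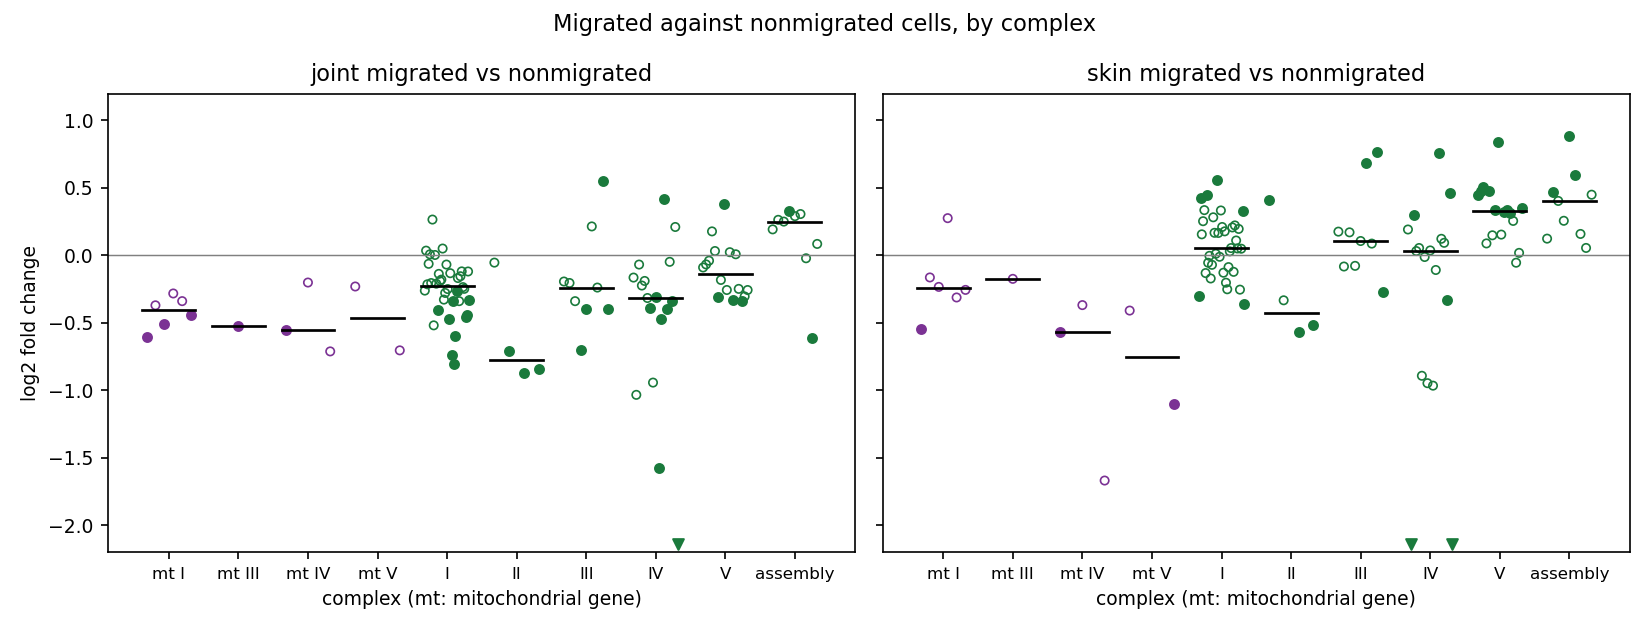
Log2 fold change of each tested member, migrated over nonmigrated cells of the same site, by complex (colors and fills as for the comparison with steady state, bars for medians, triangles at the lower edge for values below the axis). Nuclear medians are -0.21 in the joint and 0.12 in the skin, and the triangles are Ndufa4l2 and, in the skin, Cox4i2.

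In complex II, 3 of the 4 genes were lower in joint migrated than in joint nonmigrated cells. Sdhd (chr9:50596357-50603812) was at 120.2, 110.5 and 93.5 CPM in joint nonmigrated and 61.8, 60.6 and 58.4 in joint migrated libraries, for a log2 fold change of -0.84 ± 0.12 (SE, adjusted p = 0.000101). Sdhc was at 69.4, 72.1 and 56 CPM in nonmigrated and 38.6, 35.8 and 33.4 in migrated cells, a change of -0.87 ± 0.15 (SE, adjusted p = 0.000359), and Sdhb at 139, 125 and 97.2 and 79.8, 72.4 and 68.5 CPM, a change of -0.71 ± 0.15 (SE, adjusted p = 0.00164). None of these groups overlapped. Sdha, the catalytic subunit of the same complex, was at 180.3, 205 and 183 CPM in nonmigrated and 186, 183 and 178 in migrated joint cells, overlapping, with -0.05 ± 0.11 (SE, adjusted p = 0.712). In the skin Sdhd and Sdhc were again lower in migrated cells, at -0.51 ± 0.12 (SE, adjusted p = 0.00288) and -0.57 ± 0.15 (SE, adjusted p = 0.00587), and Sdhb was at -0.33 ± 0.15 (SE, adjusted p = 0.0745). Sdha was higher there, at 121, 131 and 162 CPM in nonmigrated and 176, 188 and 189 in migrated libraries without overlap, a change of 0.41 ± 0.11 (SE, adjusted p = 0.00809). For none of these 4 genes was the change in the joint minus that in the skin called, with adjusted p from 0.0932 for Sdha to 0.373 for Sdhc.

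A few nuclear genes were higher in migrated cells of both sites. Uqcrh (chr4:116066965-116075071), the hinge protein of complex III, was at 94.2, 110.0 and 93 CPM in joint nonmigrated and 158, 148 and 128 in joint migrated cells, for a log2 fold change of 0.55 ± 0.11 (SE, adjusted p = 0.000945). In the skin it was at 94.7, 95.4 and 89.5 CPM in nonmigrated and 149.5, 166 and 161 in migrated cells, again without overlap, with 0.77 ± 0.11 (SE, adjusted p = 9.4e-05). Cox7a2l (chr17:83501918-83517330) changed by 0.42 ± 0.12 (SE, adjusted p = 0.0105) in the joint and 0.76 ± 0.12 (SE, adjusted p = 0.000235) in the skin. Atp5g2 (chr15:102662864-102672352), a gene for the c subunit of the rotor ring, changed by 0.38 ± 0.13 (SE, adjusted p = 0.0216) and 0.84 ± 0.13 (SE, adjusted p = 0.000187). These 3 made up 75% of the 4 genes called higher in the joint and 13% of the 23 in the skin. Called lower at both sites were 6 nuclear genes, Cox8a, Ndufa4l2, Ndufv3, Sdhc, Sdhd and Uqcrq, or 22.2% of the joint calls and 75% of the skin calls. The share of all genes called alike at both sites was not counted. Uqcrh was not called between joint migrated cells and the steady joint node (0.21), while Sdhd was higher there, so that for Sdhd joint migrated cells lay between the cells left in the joint and the node. The promoter windows of both genes, printed earlier, hold the ETS core, which was found for 18 of 76 matched members. On migration Sdhd and Uqcrh changed in opposite directions, and a link to the core was not tested.

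ATP synthase had most of its calls in the skin. There 10 of 16 tested nuclear members of complex V were higher in migrated cells and 0 lower, and in the joint 1 was higher and 3 lower. Atp5b (chr10:128083273-128090391) was at 420.3, 419 and 490.4 CPM in skin nonmigrated and 624, 642 and 588 in skin migrated libraries, without overlap, for a log2 fold change of 0.48 ± 0.10 (SE, adjusted p = 0.00234). In the joint it was at 604, 646 and 556 CPM in nonmigrated and 588, 568 and 566 in migrated libraries, overlapping, a change of -0.07 ± 0.10 (SE, adjusted p = 0.614). Atp5j (chr16:84827866-84835625), the F6 coupling factor of the stalk, was called in opposite directions. It fell from 74.4, 83 and 73.7 CPM to 62.1, 61.1 and 60.5 in the joint, a change of -0.33 ± 0.09 (SE, adjusted p = 0.00771), and rose from 56.6, 60.9 and 65.9 CPM to 77.5, 80.3 and 74.2 in the skin, a change of 0.33 ± 0.09 (SE, adjusted p = 0.00703).

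The difference itself, the change on migration in the joint minus that in the skin, was tested in the same fit. It was called for 4 of 91 nuclear members, all lower in the joint, and for 0 of 12 mitochondrial genes, against 7.98% of all genes called in either direction and 2.97% called lower. These were Atp5j at -0.66 ± 0.13 (SE, adjusted p = 0.0101), Atp5b at -0.54 ± 0.15 (SE, adjusted p = 0.0461), Atp5c1 at -0.54 ± 0.15 (SE, adjusted p = 0.0484) and Uqcrc2 at -0.47 ± 0.12 (SE, adjusted p = 0.0382). For Uqcrc2 (chr7:120635176-120659524) the joint values were 93.2, 98.2 and 87.8 CPM in nonmigrated and 109.6, 108 and 106 in migrated cells, with 0.21 ± 0.09 (SE, adjusted p = 0.0526), and those of the skin 84, 77 and 89.3 and 129, 134 and 141 CPM, with 0.69 ± 0.09 (SE, adjusted p = 4.99e-05). The median over nuclear members was -0.35. The count was 32 without skin nonmigrated replicate 3, 8 without joint nonmigrated replicate 3, 2 without joint migrated replicate 1, 1 without each of the other 9 libraries in turn, and 15 with DESeq2. No mitochondrial gene had an unadjusted p below 0.05, and none was called with DESeq2.

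Complex I in the joint had 10 of 36 nuclear members lower and 0 higher, a share of lower calls near the 28.4% of all genes. Ndufb8 (chr19:44548572-44555440), an accessory subunit of the membrane arm, was at 82, 77.3 and 61.8 CPM in nonmigrated and 48.3, 42.7 and 41.3 in migrated cells, for a log2 fold change of -0.74 ± 0.17 (SE, adjusted p = 0.0026). Ndufc1 was at -0.80, and the core subunits Ndufv1, which binds NADH, and Ndufs1 at -0.44 and -0.27. Ndufs1, at 0.05 when only library size was scaled, was 1 of the 3 genes that took the opposite sign. In the skin 4 complex I genes were higher, led by Ndufb11 at 0.56, and 2 lower. Skin migrated cells also had 3 assembly factors higher, of which Ndufaf4 was at 6.78, 7.48 and 8.47 CPM in nonmigrated and 15.6, 13.5 and 13 in migrated cells, a change of 0.88 ± 0.15 (SE, adjusted p = 0.000412).

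Among mitochondrial genes, mt-Nd1 and mt-Co1 were lower in migrated cells at both sites. mt-Co1 (chrM:5328-6872) was at 9572, 9162 and 9726 CPM in joint nonmigrated and 6834, 5196 and 7324 in joint migrated cells, for a log2 fold change of -0.55 ± 0.18 (SE, adjusted p = 0.0204). Its skin values were 11599, 8446 and 9382 CPM in nonmigrated and 7369, 5661 and 6919 in migrated cells, with -0.56 ± 0.18 (SE, adjusted p = 0.0182). mt-Nd1 changed by -0.60 ± 0.20 (SE, adjusted p = 0.0248) in the joint and -0.54 ± 0.20 (SE, adjusted p = 0.0382) in the skin. mt-Nd4, mt-Nd6 and mt-Cytb were called lower in the joint, at -0.51, -0.44 and -0.52, and mt-Atp8 in the skin, at -1.10. Shared windows, 60.8% for mt-Nd4 and 30.8% for mt-Co1, leave the levels of these 2 genes uncertain in part. For mt-Atp8, copies outside annotated transcripts were not searched. Joint migrated replicate 2 and skin migrated replicate 2 had the lowest mitochondrial sums of their groups.

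Low isoforms gave the largest fold changes of the set, at levels near 1 CPM. Ndufa4l2 (chr10:127514967-127517154), a gene related to the complex IV subunit Ndufa4, was at 1.53, 1.33 and 1.92 CPM in joint nonmigrated cells and at no more than 3 counts in any joint migrated library. It had 160 counts over the 3 joint nonmigrated libraries and 3 over the joint migrated ones, all in replicate 3, 73.8-fold fewer per depth (95% exact interval 24.8 to 361). In the skin it had 97 counts in nonmigrated and 4 in migrated libraries, 29.3-fold fewer (11.1 to 110). Cox4i2 was at 1.2, 0.818 and 0.572 CPM in skin nonmigrated cells with 45 counts in all, and had 2 counts in skin migrated libraries, 27.2-fold fewer (7.1 to 231). These intervals cover counting error only, and edgeR called all 3 differences, with adjusted p from 0.000105 to 0.00103. In the joint it was not called (-1.03, adjusted p = 0.195). Fibroblast markers (5 of 5) were lower in migrated cells, from 126 to 353 CPM in joint nonmigrated to 1.05 to 2.15 CPM in joint migrated libraries and from 57.5 to 244 to 1.15 to 1.55 CPM in the skin, beside Ndufa4l2 at both sites and Cox4i2 in the skin, and their part was not tested.

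Cox7a1 was lower in joint migrated than joint nonmigrated cells, at 1.42, 1.43 and 1.17 CPM against 0.287, 0.584 and 0.471, for a log2 fold change of -1.58 ± 0.38 (SE, adjusted p = 0.00439). Skeletal muscle markers (10 genes), whose tissue uses this isoform, summed to 7.79 to 15.6 CPM in all libraries. Of the 5 tested, 1 was higher and 2 lower in joint migrated cells, and 1 higher and 4 lower in skin migrated cells (median -1.71), and their part was not tested. From steady state Cox7a1 had the largest increase of the nuclear members called in the skin, 1.39 ± 0.47 (SE, adjusted p = 0.0186), with 0.157, 0.208 and 0.214 CPM at steady state and 0.279, 0.549 and 0.665 in migrated cells. In the joint the same comparison gave 0.97 ± 0.43 (SE, adjusted p = 0.0737), not called, and against skin nonmigrated cells Cox7a1 was at -0.96 ± 0.42 (SE, adjusted p = 0.0677), not called. Cox6a2, another muscle form, went opposite ways from steady state. It was at 0.623, 0.417 and 0.71 CPM in the steady joint node and 1.09, 2.08 and 1.72 in joint migrated cells, a change of 1.50 ± 0.33 (SE, adjusted p = 0.00181). In the skin Cox6a2 was at 1.48, 0.972 and 0.886 CPM at steady state and 0.372, 0.399 and 0.31 in migrated cells, a change of -1.59 ± 0.38 (SE, adjusted p = 0.00237), and neither pair of groups overlapped. Cox6b2 was higher in joint migrated cells than in the steady joint node, at 1.61 ± 0.30 (SE, adjusted p = 0.000544), and was at 0.53 ± 0.32 (SE, adjusted p = 0.159) in the skin. Their ubiquitous counterparts Cox6a1 and Cox6b1 were called higher at both sites.

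The site of change from steady state was tested as a contrast added after the values had been seen. It was called for 2 of 89 nuclear members and 0 of 13 mitochondrial genes, against 10.1% of all genes. Given as the change in the joint minus that in the skin, Cox6a2, which went up in the joint and down in the skin, was at 3.10 ± 0.50 (SE, adjusted p = 0.0021), and Uqcrb, with the smaller change in the joint, was at -0.79 ± 0.14 (SE, adjusted p = 0.00385). No mitochondrial gene had an unadjusted p below 0.05 in this contrast. The difference in depth between skin migrated and steady skin node libraries cannot be told apart from a site difference here. Neither can the difference in treatment that the titles of the steady-state nodes give, PBS for the joint and naive for the skin.

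Some nuclear members were higher in cells left in the joint than in cells left in the skin. Of 91 tested nuclear members, 27 were higher and 0 lower in joint nonmigrated cells, where 12.4% of all genes were called higher and 15.1% lower. The largest differences were Ndufc1 at 0.72 ± 0.20 (SE, adjusted p = 0.0227), Atp5g1 at 0.68 ± 0.13 (SE, adjusted p = 0.00354) and Atp5e at 0.66 ± 0.10 (SE, adjusted p = 0.000949), the latter being the epsilon subunit of ATP synthase. Complex V had 9 of 16 members called, among them Atp5b at 0.44, and complex I 9 of 36. Sdha, at 0.45, was the complex II call. This count was fragile. It was 3 without skin nonmigrated replicate 1, 5 without skin nonmigrated replicate 2 or without joint nonmigrated replicate 2, 12 without joint nonmigrated replicate 1 and 45 without skin nonmigrated replicate 3, and it was 3 when only these 2 groups were fitted. Neutrophil markers (6 of 8) and B cell markers (6 of 6) were higher in joint nonmigrated cells, and 4 of 7 proliferation markers as well. T cell markers (5 of 8), migratory dendritic cell markers (4 of 6) and keratinocyte markers (5 of 5 tested) were lower, and their part was not tested. No mitochondrial gene was called by edgeR or DESeq2, with 1 at an unadjusted p below 0.05.

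Between sites, few genes of any kind were called among migrated cells. Between joint migrated and skin migrated cells 0 of 91 nuclear and 0 of 12 mitochondrial genes were called, where 1.78% of all genes were. At an unadjusted p below 0.05 there were 17 nuclear and 0 mitochondrial genes, and DESeq2 called 9 nuclear genes and 0 mitochondrial ones. Nuclear log2 fold changes had a median of -0.09. Uqcrb was at -0.57 ± 0.14 (SE, adjusted p = 0.0595) and Atp5j at -0.33 ± 0.09 (SE, adjusted p = 0.0887). The 2 steady-state nodes gave 0 of 89 nuclear and 0 of 13 mitochondrial calls, against 7.61% of all genes, with 3 nuclear and 0 mitochondrial genes at an unadjusted p below 0.05 and 0 by DESeq2. Cell makeup still differed between these nodes. Neutrophil (8 of 8), monocyte and macrophage (7 of 8) and proliferation markers (3 of 7) were higher in the steady joint node. T cell (2 of 8) and migratory dendritic cell markers (1 of 6) were lower there, and the part of these cells was not tested. Complex IV summed over its nuclear members ran from 897 to 1283 CPM in the steady joint node and from 851 to 972 in the steady skin node, the highest value being steady joint node replicate 3.

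Genes around the machinery were counted from lists, whose medians stand beside all-gene medians between -0.02 and 0.02. Their counts stand against 27.1% of all genes called higher and 22.7% lower in the joint, and 34.4% and 30.6% in the skin, from steady state. Against nonmigrated cells those shares were 27.1% and 28.4% in the joint and 28.1% and 28.9% in the skin. Factors that maintain and transcribe mitochondrial DNA were lower in migrated cells than at steady state, 9 of 12 in the joint and 8 of 12 in the skin, where 1 was higher, with median log2 fold changes of -0.56 and -0.54. Tfam, which packages and transcribes the mitochondrial genome, was at -0.74 and -0.61, the mitochondrial RNA polymerase Polrmt at -0.55 and -0.88, and Lrpprc, which stabilizes mitochondrial messengers, at -0.67 and -0.50. Against nonmigrated cells the same list had 2 higher and 1 lower in the joint and 5 higher and 0 lower in the skin, with Tfam at 1.16 and 1.00. Of 8 PGC-1 and nuclear respiratory factor genes, 3 were lower in joint and 2 lower and 1 higher in skin migrated cells than at steady state, Pprc1 being at -0.78 and -1.12. Against nonmigrated cells this list of 8 had 2 higher and 1 lower in the joint and 4 higher and 1 lower in the skin. Its medians were 0.07 and 0.24. Within it Ppargc1a, a coactivator of mitochondrial biogenesis, was higher in migrated than nonmigrated cells, at 2.95 in the joint and 4.54 in the skin.

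Cytochrome c (Cycs), the carrier between complexes III and IV, was at 0.97 ± 0.11 (SE, adjusted p = 3.97e-06) in skin migrated cells against steady state and 0.12 ± 0.11 (SE, adjusted p = 0.374) in the joint. Against nonmigrated cells it was lower at both sites, at -0.61 and -0.50. Adenine nucleotide carriers, porins and uncoupling proteins had 5 of 8 tested genes higher than steady state in the joint and 6 of 8 in the skin, with none lower and medians of 0.43 and 0.62, led by the outer membrane channel Vdac1 at 0.85 and 1.12 and the ADP/ATP carrier Slc25a4 at 0.82 and 0.98. Against nonmigrated cells 5 of these were lower and 1 higher in the joint and 4 lower and 1 higher in the skin, Ucp2 being at -1.02 and -0.76. Of 13 TCA cycle genes, 2 were higher than steady state in the joint and 5 in the skin with none lower, below and near the shares of all genes called higher (27.1% and 34.4%). Against nonmigrated cells 1 was higher and 4 lower in the joint, Dlst at -0.72, and 6 higher and 2 lower in the skin, Suclg2 at 1.22.

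Mitochondrial ribosomal proteins (78 genes) had 15 higher and 10 lower in joint and 35 higher and 7 lower in skin migrated cells than at steady state (medians 0.07 and 0.30), and 10 higher and 13 lower in the joint and 23 higher and 3 lower in the skin against nonmigrated cells. Assembly factors of complex IV had 5 of 19 higher and 1 lower in the joint and 7 higher and 2 lower in the skin against steady state, with Cmc2 at 1.48 and 2.01. Against nonmigrated cells they had 2 higher and 1 lower in the joint and 3 higher in the skin. Sdhaf1, an assembly factor for the iron-sulfur subunit of complex II, was higher in migrated cells in all 4 comparisons, at 1.34 and 1.27 against steady state and 1.34 and 0.94 against nonmigrated cells. Its list of 4 complex II assembly genes had 1 higher and 0 lower in the joint against steady state, and 2 higher and 1 lower in the skin. Against nonmigrated cells 1 was higher and 0 lower at each site. Complex I assembly factors outside the symbol rule (8 genes) had 2 lower in the joint and 4 lower in the skin against steady state. Assembly factors of complex III (6 genes) had 1 lower in the joint and 2 higher and 2 lower in the skin, and those of complex V (3 genes) 1 higher at each site.

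Markers of cell types also moved against nonmigrated cells. Neutrophil markers were lower in migrated cells for 8 of 8 genes in the joint and 7 of 8 in the skin, and monocyte and macrophage markers for 8 of 8 at both sites. T cell markers were higher for 8 of 8 and 7 of 8, and B cell and migratory dendritic cell markers for 6 of 6 each at both sites. Proliferation markers were higher for 2 of 7 in the joint and 7 of 7 in the skin. Erythroid markers, at 0.532 to 36.3 CPM over all libraries, had 2 of 4 tested genes lower in the skin. Keratinocyte markers were lower in skin migrated cells for 5 of 5 tested genes, from 26.7 to 318 CPM to 1.95 to 5.12 CPM, and none was called in the joint. The part of these lists in the member values was not tested.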

How the data were processed

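TruSeq libraries of sorted CD45+ cells were sequenced as paired reads of 100 bases. Per the labels and methods, the authors trimmed reads with Trim Galore, aligned them with TopHat2 to mm10 and deposited whole-number read counts per Ensembl gene made by HTSeq count. The submitters' notes also name FastQC, Cufflinks and DESeq2, and tool versions are not given in the sources used here. All 18 columns were matched to a sample by name. The 5 summary lines of the table stayed out of library sizes (no feature 0.092% to 0.562% of reads, ambiguous 1.84% to 2.37%, not unique 9.24% to 12.7%).

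Counts were tested with edgeR 4.0.16 (R 4.3.3, limma 3.58.1), using glmQLFit and glmQLFTest after filterByExpr with a minimum count of 10 and TMM scaling. The 12 inflamed libraries (16777 genes) and the 12 lymph node libraries (17107 genes) were fitted separately with group as the only term. Adjusted p-values follow Benjamini and Hochberg over all tested genes, with a threshold of 0.05. Each fit was tested on simulated data with known changes. No summed level or list was tested. Levels are CPM after TMM over the 18 libraries and depth sets their precision.

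Named were all mitochondrial genes, core subunits, isoform sets, the 3 called genes of largest change and of smallest p per direction, genes called against their complex, and those failing the filter. Values of 1 gene that this rule names are not reported here. Members and lists were chosen with earlier results of these data known. The sources call the replicates biological and pooled, and p-values measure the spread between these libraries. Replicate numbers were not taken as pairs, and whether they mark pairs cannot be told from these values. Between joint migrated and nonmigrated libraries, deviations from group means correlated at 0.00997 to 0.192 for same-numbered libraries. For different-numbered libraries they correlated at -0.202 to 0.0781. DESeq2 1.42.0, other scalings, filters and thresholds, a replicate block, other sets of samples in the fit and leaving out each library were tried.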

Additional observations from a re-analysis of the deposited data

Results flagged for a closer look

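For 4 nuclear genes the change from nonmigrated to migrated cells differed between joint and skin in a test of the difference itself, given as the log2 change in the joint minus that in the skin. Atp5j stood at -0.66 (adjusted p = 0.0101), with changes of -0.33 in the joint and 0.33 in the skin. Atp5b stood at -0.54 (adjusted p = 0.0461), Atp5c1 at -0.54 (adjusted p = 0.0484) and Uqcrc2 at -0.47 (adjusted p = 0.0382). These calls were not stable: with library size only in place of TMM Atp5j alone was called, and without any 1 of 9 libraries the count was 1 in place of 4. In the contrast added after the values had been seen, the change from the steady-state node differed between sites for 2 genes. Skin migrated libraries were shallower than those of the steady skin node, and the steady-state nodes were titled PBS for the joint and naive for the skin. Neither can be told apart from a site difference. Uqcrb stood at -0.79 (adjusted p = 0.00385), with changes of 0.20 in the joint and 0.98 in the skin. Cox6a2, at levels of 0.117 to 2.52 CPM, stood at 3.10 (adjusted p = 0.0021), with changes of 1.50 and -1.59. Groups of 3 libraries were too small for a test of single outlying libraries.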

How the results depend on the processing

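The stricter thresholds, and fits that gave a gene no adjusted p, were left out of the following count. Of 115 called values of named genes, 63 kept their direction and side of the 0.05 threshold under every other alternative run on them. Only 1 changed sign, Ndufs1 between joint migrated and nonmigrated cells, at 0.0492 on the log2 scale (adjusted p = 0.67) when only library size was scaled. Counts of called members moved by more than 1.5 times as follows, and the cause was not tested. With an absolute log2 fold change above 1 as well, migrated against nonmigrated cells gave 2 nuclear and 0 mitochondrial genes in the joint and 2 and 1 in the skin, nonmigrated joint against skin 0 nuclear genes, the difference of changes 0, migrated against steady state 2 and 1 in the joint and 5 and 1 in the skin. With adjusted p below 0.001 in addition, the same order gave 1 and 0, 1 and 0, 0, 0, 1 and 1, and 3 and 0. Library size only gave 0 mitochondrial genes at both sites and 54 nuclear genes in the skin on migration, and 1 in the difference of changes. Fitting only the groups compared gave 3 nuclear genes between nonmigrated groups, 3 between migrated groups and 18 for joint migrated against the steady joint node. DESeq2 gave 9 between migrated groups and 15 in the difference of changes, all 18 samples in the fit gave 2 and 7, and no filter gave 1 in the latter.

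Leaving out 1 library at a time moved the nuclear counts over 20 to 36 (joint migration), 22 to 42 (skin migration), 3 to 45 (nonmigrated groups), 1 to 32 (difference of changes), 15 to 65 (joint against steady state) and 47 to 57 (skin against steady state), and the mitochondrial counts over 0 to 5, 0 to 4 and, against steady state, 7 to 7 and 6 to 10. Other counts stayed at 0. With the replicate block, 8 mitochondrial genes were called on joint migration, 1 between nonmigrated groups and 1 nuclear gene in the difference of changes, Atp5j but not Uqcrc2, Atp5c1 or Atp5b, while nuclear counts were 29 on joint and on skin migration, 25 between nonmigrated groups, and 25 and 56 against steady state. Same-numbered libraries of skin migrated and nonmigrated cells correlated at 0.0748 to 0.177, and different-numbered ones at -0.126 to 0.0309. The numbers were not taken as pairs in the main fit, and a pairing cannot be told from these values. Depth limits Ndufa4l2, Cox4i2, Cox6a2, Cox6b2, Cox7a1 and the 5 mitochondrial genes with nuclear copies, which held few counts.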
